A study of Mus musculus with 8 samples.

Results

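Fos, Jun, Junb, Egr1, Atf3, Ier2, Dusp1, Zfp36, Btg2 and Gadd45b are immediate early response genes, and they were read here in RNA-seq count data from mouse liver. The 10 genes were found by matching their symbols to the Ensembl identifiers of the count table through the GRCm38 annotation. They are 10 of 49671 genes in the table, and all 10 were among the 13117 genes that reached 1 CPM, the read count scaled to the library's total, in at least 2 libraries. The 8 libraries came from post weaning mice, C57BL/6 in the labels and C57BL/6N in the methods of the study, in 4 groups of 2 libraries each, WT males, NT-KO males, WT females and NT-KO females. NT-KO mice are homozygous for a deletion at the start of the coding sequence of Lbr, a gene of the inner nuclear membrane, carried in every tissue and bred from 1 founder, and the labels name no treatment. Livers were frozen on dry ice and RNA was taken from whole tissue, so fewer cells of a type and less RNA per cell cannot be told apart. The labels do not say whether the 2 libraries of a group are separate animals, so every p-value measures the spread between these libraries. Total counts ran from 45020377 in male WT replicate 2 to 64396291 in female WT replicate 2.

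Immediate early genes are transcribed within minutes of a stimulus, with no need for new protein synthesis. The stimuli include growth factors, stress hormones, cytokines and the handling and removal of the tissue itself. MAP kinases pass the signal to factors already bound at the promoters, among them SRF with its ternary complex partners at CArG boxes and CREB at cyclic AMP response elements. The messages are short-lived, because AU-rich elements in the 3′ UTR recruit decay factors. In the liver the family is best known for its burst after partial hepatectomy and during cell isolation.

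The promoters and the AU-rich elements are shown first, since they are the sequence features by which the family is known. RefSeq promoters on GRCm38.p6 were searched for 8 of the 10 genes, over the 250 bases before the start site on both strands. Egr1 and Ier2 are not among the 8, so nothing is said here of their promoters. The 8-letter cyclic AMP response element TGACGTCA was in the promoters of Btg2 and Dusp1, and in 1.55% of 32851 promoters. Its first 6 letters, TGACGT, a search added after the sequences had been seen and overlapping the 8-letter element, were in 4 of the 8 (Atf3, Btg2, Dusp1 and Fos) and in 6.47% of all promoters. The 170 bases before the start are printed for these 4, 5′ to 3′ along the gene. They lie at chr12:85473720-85473889 on the plus strand for Fos, and on the minus strand at chr1:134079156-134079325 for Btg2, chr17:26508473-26508642 for Dusp1 and chr1:191183334-191183503 for Atf3. Capitals mark the cyclic AMP sites, the TATA box TATAAA of Fos and the EGR site GCGNGGGCG of Btg2. In Atf3 the capitals are the 6-letter site as read on the other strand.
Fos: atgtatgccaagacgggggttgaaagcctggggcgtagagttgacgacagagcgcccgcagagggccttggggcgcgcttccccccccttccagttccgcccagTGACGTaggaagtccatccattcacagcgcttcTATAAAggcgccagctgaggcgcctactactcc
Btg2: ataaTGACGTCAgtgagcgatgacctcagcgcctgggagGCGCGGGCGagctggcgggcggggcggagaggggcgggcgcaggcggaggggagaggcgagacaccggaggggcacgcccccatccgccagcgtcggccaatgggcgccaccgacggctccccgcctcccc
Dusp1: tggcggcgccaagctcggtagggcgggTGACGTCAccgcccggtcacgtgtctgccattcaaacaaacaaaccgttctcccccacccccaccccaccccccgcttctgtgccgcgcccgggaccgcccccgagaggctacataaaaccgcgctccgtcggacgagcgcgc
Atf3: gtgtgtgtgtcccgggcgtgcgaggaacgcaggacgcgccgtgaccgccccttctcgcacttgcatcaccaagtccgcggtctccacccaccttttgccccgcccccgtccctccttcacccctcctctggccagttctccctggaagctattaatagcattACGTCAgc

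In Fos the 6-letter site began 66 bases before the start and the TATA box 33 bases before it. Btg2 and Dusp1 held the 8-letter element from 166 and 143 bases before the start. The Dusp1 promoter had another 6-letter site 191 bases before the start, beyond the printed stretch. Of the other motifs, the EGR site was in Btg2, Gadd45b and Zfp36 and in 4.7% of all promoters, and the CArG box only in Zfp36 of the 8, with 1.47% of all promoters. The GC box GGGCGG was in 7 of the 8, all but Junb, beside 32.7% of all promoters. TATAAA was in Fos and Gadd45b and in 12.4% of all promoters, and the AP-1 site TGANTCA was in none of the 8 within this window, beside 6.75%. A match describes the letters and does not show that a factor was bound.

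AU-rich heptamers are given for the 6 genes that had at least 1 TATTTAT in the 3′ UTR of the protein-coding transcript with the longest coding part, out of 10. Capitals mark the heptamer in a window of 30 bases, in DNA letters.
Fos: gtgttttcaattTATTTATtaagatggatt
Jun: tttgcttgtgcaTATTTATaatagcgttcg
Atf3: gaaaatattactTATTTATcccagtattcc
Dusp1: ggagctggtcctTATTTATttaacaccccc
Zfp36: gggcccttTATTTATgacgacttTATTTAT
Btg2: aaaatgaagagcTATTTATacatgtttttt

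Dusp1 and Zfp36 each held 3 heptamers in the whole 3′ UTR, Fos held 2, and Jun, Atf3 and Btg2 held 1. Among 11795 tested protein-coding genes 26.6% had at least 1 heptamer and 8.91% had at least 2, against 3 of the 10. In genes whose 3′ UTR was at most 1500 bases the heptamer was in 5 of 9 immediate early response genes and 14.9% of 7795 tested genes. Junb, Egr1, Ier2 and Gadd45b had no heptamer. The shorter ATTTA was in the 3′ UTR of Junb and Egr1, with 2 in each, and not in that of Ier2 or Gadd45b. The genes were also compact. Their median length was 3710 bases, against 24410 for tested protein-coding genes, and 8 of the 10 were under 6000 bases, against 13%. All 10 had at most 4 exons, as did 19.1% of tested genes. The median 3′ UTR, at 794.5 bases against 931, was closer to that of other genes.

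The knocked out gene was read first as a check on the labels. Lbr was at 7.99 and 6.54 CPM in WT males, 12.8 and 13.6 in NT-KO males, 7.43 and 6.96 in WT females and 13.1 and 14 in NT-KO females. Every NT-KO library was above every WT library, and the counts cover the whole gene, so they do not show the loss of the deleted stretch. Xist and the Y-linked Ddx3y, Eif2s3y, Kdm5d and Uty separated the male from the female libraries with no overlap. The 4 Y-linked genes had 585 counts or more in each male library and at most 10 in a female library, the 10 being Eif2s3y in female NT-KO replicate 2. Alb, the hepatocyte albumin gene, was at 51900 CPM or more in every library, as the tissue label says.

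The 10 genes differed widely in level. RPKM, which is CPM per kilobase of exon and lets genes of different length be set side by side, averaged 25.3 ± 11.7 (SD over 8 libraries) for Zfp36, 16.1 ± 5.79 for Ier2 and 13.7 ± 9.21 for Dusp1. Junb followed with 7.93 ± 2.84. A middle set held Egr1 at 3.35 ± 1.68, Btg2 at 3.29 ± 0.856 and Jun at 2.79 ± 0.955 RPKM. Atf3 at 0.769 ± 0.323, Fos at 0.729 ± 0.518 and Gadd45b at 0.663 ± 0.358 RPKM were the lowest. Neighbours in this order were clearly apart only in part: Junb was above Egr1 and Jun above Atf3 in 8 of 8 libraries, while Egr1 was above Btg2 in 4 of 8 and Fos above Gadd45b in 3 of 8. Dusp1 was above Junb in 5 of 8.

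**Figure D1:**
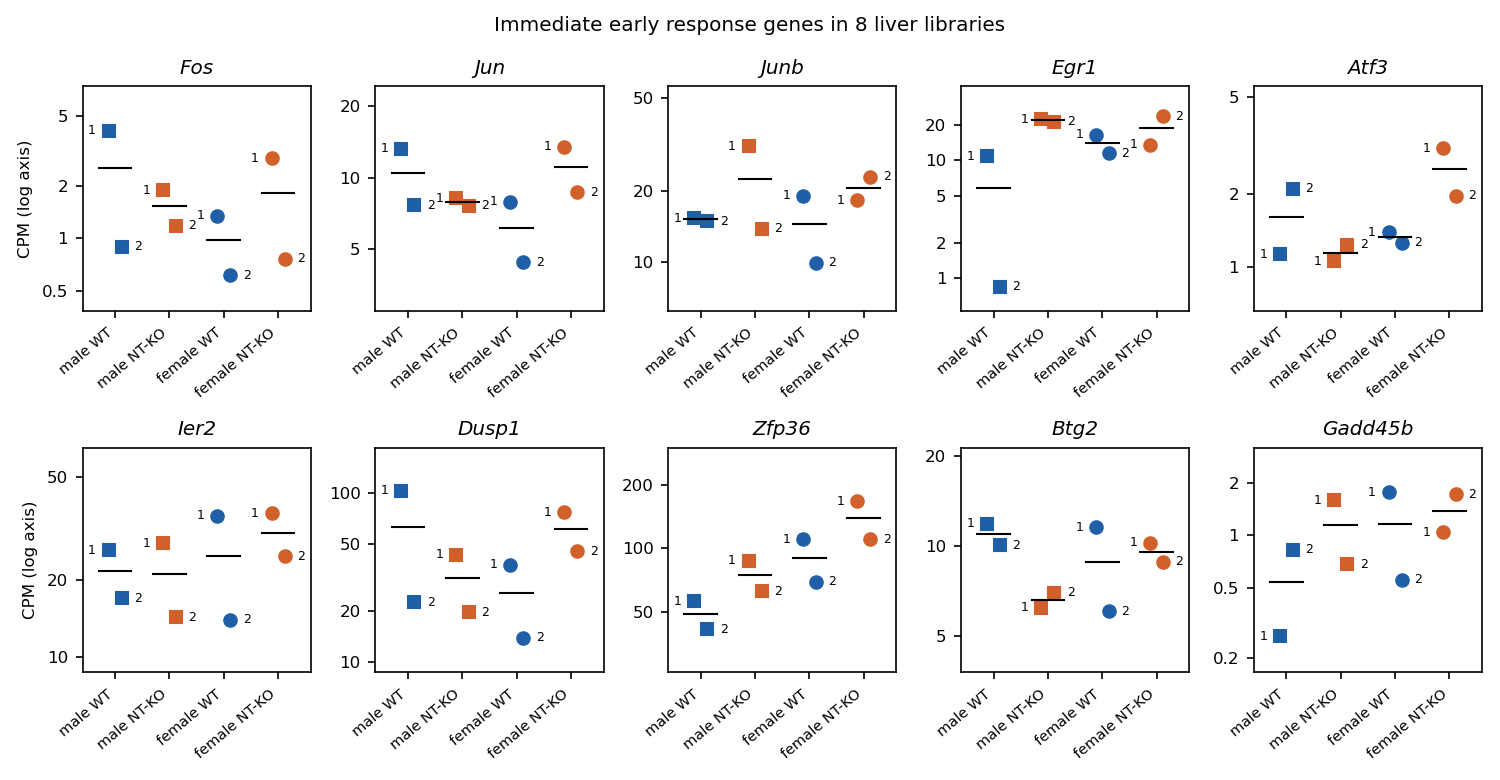
CPM of the 10 immediate early response genes (log axis, 1 panel for each gene) in the 4 groups, with a point for each library, its replicate number beside it and a line at the group mean. Squares are males and circles females, blue is WT and orange NT-KO, and the lowest Egr1 point, male WT replicate 2 at 0.85 CPM, stands far below the other 7.

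The AP-1 transcription factors come first, with gene positions as in GENCODE M21 on GRCm38 and counts taken over exons. Fos (ENSMUSG00000021250, chr12:85473890-85477273, plus strand), which pairs with Jun proteins, was at 4.13 and 0.897 CPM in WT males, 1.89 and 1.18 in NT-KO males, 1.35 and 0.617 in WT females and 2.88 and 0.765 in NT-KO females. Its highest libraries were male WT replicate 1 and female NT-KO replicate 1, each beside a low partner, so the groups overlapped in both sexes. For NT-KO against WT, edgeR's quasi-likelihood test gave males a log2 fold change of -0.72 (SE 0.794, unadjusted p = 0.389, FDR 0.781) and females one of 0.89 (SE 0.810, unadjusted p = 0.303, FDR 1). Without male WT replicate 1 the male value turned to 0.77, and without female NT-KO replicate 1 the female value turned to -0.35.

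Jun (ENSMUSG00000052684, chr4:95049034-95052222, minus strand), the DNA-binding partner of Fos, had 13.2 and 7.65 CPM in WT males, 8.16 and 7.60 in NT-KO males, 7.90 and 4.39 in WT females and 13.5 and 8.66 in NT-KO females. Both female NT-KO libraries were thus above both female WT libraries, with 8.66 against 7.90 CPM at the near ends. The log2 fold change was 0.85 in females (SE 0.361, unadjusted p = 0.0452, FDR 1 by edgeR) and -0.40 in males (SE 0.360, unadjusted p = 0.293). With 1 library left out the female value ran from 0.49 to 1.33. In the female comparison 1.55% of all tested genes had an unadjusted p under 0.05. Some 7.28% of the exon bases of Jun overlap Junos on the other strand, and strand-aware counting is not stated, so reads there cannot be assigned to one of them.

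Junb (ENSMUSG00000052837, chr8:84974484-84978718, minus strand), a Jun relative that often restrains Jun, was at 15.4 and 14.9 CPM in WT males, 31.2 and 13.9 in NT-KO males, 19.2 and 9.94 in WT females and 18.3 and 23.1 in NT-KO females. Male NT-KO replicate 1 was the highest library, and its partner was below both WT libraries. With log2 fold changes of 0.57 (SE 0.402) in males and 0.50 (SE 0.401) in females, the groups overlapped in each sex. The female value was 0.10 without female WT replicate 2 and 1.06 without female WT replicate 1, and the male value was -0.13 without male NT-KO replicate 1. Prdx2 overlaps 7.52% of its exon bases on the other strand.

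Atf3 (ENSMUSG00000026628, chr1:191170296-191218039, minus strand), a stress-induced factor that joins Jun proteins and often represses its targets, had 1.13 and 2.10 CPM in WT males, 1.06 and 1.24 in NT-KO males, 1.39 and 1.26 in WT females and 3.09 and 1.97 in NT-KO females. The female groups did not overlap, with NT-KO higher, and the male groups did. The female log2 fold change was 0.93 (SE 0.366, unadjusted p = 0.034, FDR 1 by edgeR), and the male one was -0.48 (SE 0.376). The female effect minus the male effect was 1.41 (SE 0.525, unadjusted p = 0.0269, FDR 0.659 by edgeR), where 7.2% of tested genes had an unadjusted p under 0.05. The same difference for Jun was 1.26 (SE 0.509, unadjusted p = 0.0382, FDR 0.671 by edgeR). With 1 library left out the female value of Atf3 ran from 0.57 to 1.22 and its difference from 0.91 to 1.81, and the difference for Jun from 0.82 to 1.74.

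Egr1 (ENSMUSG00000038418), a zinc finger activator induced by serum and injury, varied most among the 10. It was at 10.8 and 0.85 CPM in WT males, 22.3 and 21.1 in NT-KO males, 16.4 and 11.4 in WT females and 13.5 and 23.6 in NT-KO females. The low value rests on 36 counts in male WT replicate 2, and the other 7 libraries had 613 to 1541 counts. Its highest library was 27.7-fold above its lowest, and 1.47% of tested genes had a wider range on the log2 scale. Male NT-KO was above male WT with a log2 fold change of 1.88 (SE 0.832, unadjusted p = 0.0529, FDR 0.44 by edgeR). This value was 1.01 without male WT replicate 2 and 4.67 (FDR 0.0191) without male WT replicate 1, when the lone low library stood for the group. Over all alternatives the FDR ran from 2.34e-12, with no filter on low counts, to 0.649. Without that filter many more of all genes were called, as counted below. In females the groups overlapped (log2 fold change 0.42, SE 0.800).

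Among the signalling inhibitors, Dusp1 (ENSMUSG00000024190, chr17:26505590-26562128, minus strand), the phosphatase that switches off p38, JNK and ERK, had the widest fold range of the 10 after Egr1, its highest library being 7.34-fold above its lowest. It was at 103 and 22.7 CPM in WT males, 43.2 and 19.8 in NT-KO males, 37.7 and 14 in WT females and 76.9 and 45.3 in NT-KO females. Male WT replicate 1 and female NT-KO replicate 1 were the highest libraries, as for Fos and Jun. In females NT-KO was above WT with no overlap, and in males the groups overlapped. The log2 fold change was 1.24 in females (SE 0.726, unadjusted p = 0.125, FDR 1 by edgeR) and -1.0 in males (SE 0.723, unadjusted p = 0.204). The female effect exceeded the male effect by 2.24 (SE 1.02, unadjusted p = 0.0596, FDR 0.691 by edgeR). Without male WT replicate 1 the male value was 0.47 and the difference 0.78, the lowest with 1 library left out, and without female WT replicate 1 the difference was 3.12, the highest. The female value was 0.70 without female WT replicate 2 and 2.12 without female WT replicate 1. With no filter on low counts the FDR was 7.51e-06 in females, 0.000438 in males and 2.54e-10 for the difference. That setting also called many more of all genes, as counted below.

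Zfp36 (ENSMUSG00000044786, chr7:28376784-28380253, minus strand), or tristetraprolin, binds AU-rich elements and triggers message decay, its own included. It had 55.9 and 41.2 CPM in WT males, 87.2 and 62.3 in NT-KO males, 110 and 69.1 in WT females and 167 and 110 in NT-KO females. NT-KO was above WT in both sexes, by less than the rounding for the nearest female pair, both at 110 CPM. The fitted log2 fold changes were 0.62 for males (SE 0.308, unadjusted p = 0.0774, FDR 0.478 by edgeR) and 0.63 for females (SE 0.308, unadjusted p = 0.0736, FDR 1). Averaged over both sexes it was 0.63 (SE 0.218, unadjusted p = 0.0201, FDR 0.838 by edgeR), where 5.42% of tested genes had an unadjusted p under 0.05. This average stayed between 0.46 and 0.81 over the alternatives. With 1 library left out the male value ran from 0.36 (NT-KO replicate 1 out) to 0.85 (WT replicate 1 out), and the female value from 0.30 (NT-KO replicate 1 out) to 1.00 (WT replicate 1 out). Gm44710 overlaps 3.6% of its exon bases on the other strand.

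Of the growth and damage regulators, Btg2 (ENSMUSG00000020423, chr1:134075170-134079120, minus strand), an antiproliferative gene that recruits deadenylases, had 11.9 and 10.1 CPM in WT males, 6.23 and 7.01 in NT-KO males, 11.6 and 6.07 in WT females and 10.3 and 8.88 in NT-KO females. The male groups did not overlap, with WT higher, and the female groups did. The male log2 fold change was -0.73 (SE 0.292, unadjusted p = 0.0358, FDR 0.397 by edgeR), beside 11.5% of tested genes with an unadjusted p under 0.05. It stayed between -0.85 and -0.61 over the alternatives, and the female value was 0.12 (SE 0.289).

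Gadd45b (ENSMUSG00000015312, chr10:80930073-80932204, plus strand), which activates stress kinases, was low in every library, with 15 to 112 counts. It was at 0.265 and 0.826 CPM in WT males, 1.59 and 0.686 in NT-KO males, 1.76 and 0.558 in WT females and 1.04 and 1.71 in NT-KO females. Among the males only NT-KO replicate 1 was above 1 CPM, so Gadd45b was not tested with the male libraries alone. The spread within groups was as wide as that between them, with log2 fold changes of 1.09 for males (SE 0.733, unadjusted p = 0.175) and 0.26 for females (SE 0.679, unadjusted p = 0.708). Leaving out 1 male library at a time took the male value from 0.37, with NT-KO replicate 1 out, to 2.09, with WT replicate 2 out. Ier2 (ENSMUSG00000053560, chr8:84661331-84662852, minus strand), an intronless gene of a nuclear protein, was at 26.1 and 17 CPM in WT males, 27.7 and 14.3 in NT-KO males, 35.5 and 14 in WT females and 36.3 and 24.7 in NT-KO females. Groups overlapped in both sexes, with log2 fold changes of -0.04 (SE 0.470) and 0.30 (SE 0.469) in males and females, the first being 0.03 when only library size was used for scaling.

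Set together, none of the 10 genes passed the thresholds (an FDR of 0.05 or less with a log2 fold change beyond 1 in size) for NT-KO against WT in either sex by edgeR's quasi-likelihood test, its likelihood ratio test or DESeq2. The background was also thin, with 2 tested genes called in males (0.0152%) and 1 in females (0.00762%) by the first test, 1.56% and 0.0839% by the second, and 1.66% and 0.0381% by DESeq2. At an unadjusted p under 0.05 the count was 1 of 10 in males (Btg2, lower in NT-KO, beside 5.5% of tested genes) and 2 of 10 in females (Jun and Atf3, higher, beside 0.869%). For the average over both sexes it was 1 (Zfp36, higher, beside 3%) and for the difference between the sexes 2 (Jun and Atf3, beside 3.53% in that direction), and no gene of the 10 passed the FDR in either. With no filter on low counts, a setting that also called more of all tested genes, Egr1 passed both thresholds over both sexes (log2 fold change 1.15, FDR 2.51e-09). The FDR there was 0.00855 for Zfp36 and 0.0446 for Junb, both short of the fold threshold. For the difference between the sexes the unfiltered FDR was 2.54e-10 for Dusp1, 0.00133 for Egr1, 0.02 for Jun and 0.0488 for Fos. With the filter, called genes made up 0.0152% of those tested over both sexes and for the difference. The median log2 fold change was -0.22 in males, with 4 fitted above 0 and 6 below, and 0.57 in females, with 10 above 0. Over all tested genes the medians were 0.01 and 0.0, and 51.6% and 50.3% were fitted above 0. The average over both sexes was above 0 for 9 of the 10, beside 51%, and the female effect exceeded the male effect for 7, beside 48.8%. All 10 female values stayed above 0 under the other scalings, but leaving out 1 library turned Fos, Egr1, Ier2, Btg2 or Gadd45b to below 0. The male median was 0.46 without male WT replicate 1, and the female median ran from 0.26 to 1.09 with 1 library left out.

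In males NT-KO was above WT with no overlap for 2 of 10 genes (Egr1 and Zfp36) and below for 1 (Btg2), beside 19.6% and 19.2% of tested genes. The female count was 4 of 10 above (Jun, Atf3, Dusp1 and Zfp36) and 0 below, beside 12.2% and 14.2%. An exact permutation test of 2 against 2 libraries cannot go below 0.333.

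**Figure D2:**
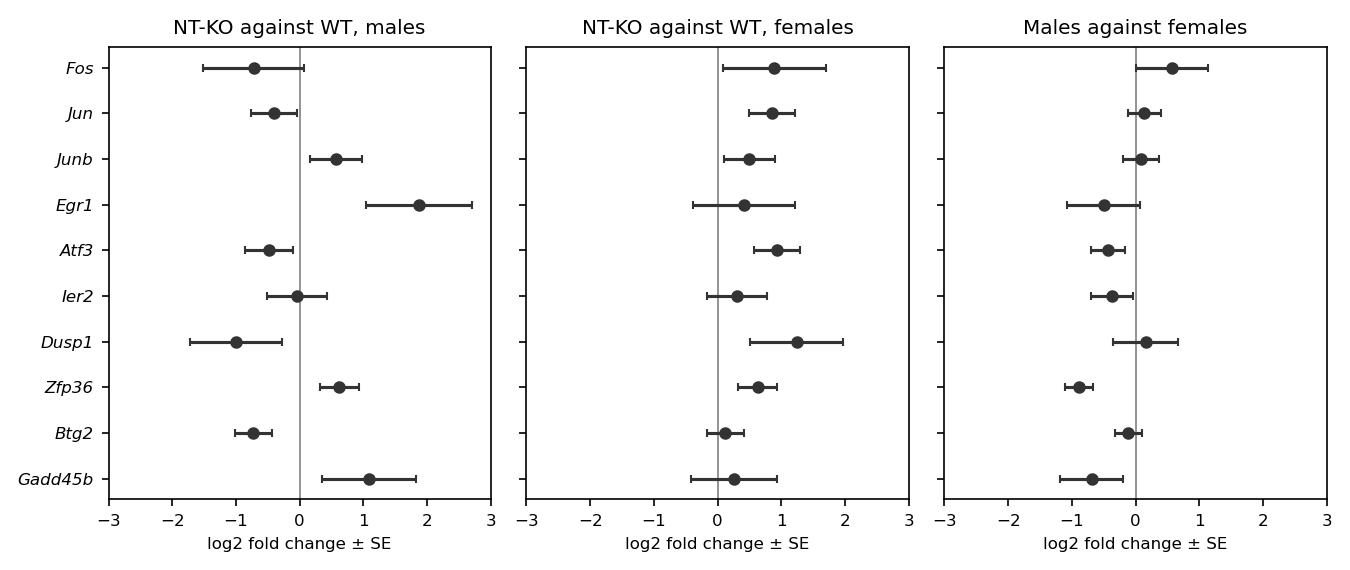
Fitted log2 fold change with its SE (edgeR) for the 10 genes, in NT-KO against WT males, NT-KO against WT females, and males against females over both genotypes. All female NT-KO values lie to the right of 0, male values fall on both sides, and Zfp36 at -0.89 is the farthest from 0 for males against females.

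Between the sexes, Zfp36 was lower in males, with a log2 fold change of -0.89 (SE 0.219, FDR 0.0465 by edgeR), which passed the FDR but not the fold threshold. The number of all tested genes past the FDR alone is given below, with the processing. The 4 male libraries ran from 41.2 to 87.2 CPM and the 4 female libraries from 69.1 to 167 CPM, so the ranges overlapped. The FDR was 0.143 without female NT-KO replicate 1, 0.137 without female WT replicate 1, 0.125 without male WT replicate 2, 0.12 without male NT-KO replicate 2, 0.0658 without male WT replicate 1, and 0.0544 when female NT-KO replicate 2 was left out. In the same comparison all 8 Kupffer cell markers were fitted lower in males (median -0.49, 4 with no overlap), as were all 7 sinusoidal endothelial markers (median -0.37, 4 with no overlap), beside 8.5% of tested genes below with no overlap, and their part in the Zfp36 value was not tested. The FDR of Zfp36 was 0.00354 with the likelihood ratio test and 0.000723 with DESeq2. None of the other 9 genes passed the FDR, and 0 of 10 passed both thresholds, beside 4.19% of tested genes, or 5.17% by the likelihood ratio test and 5% by DESeq2, with 0 of 10 by each. Zfp36 was the 1 gene of 10 at an unadjusted p under 0.05, beside 26.9% of tested genes, or 13.8% counting those lower in males. The 10 had 4 values above 0, beside 51.1%. No gene of the 10 separated the 4 male from the 4 female libraries, beside 7.6% of tested genes above and 8.5% below. With library size as the only scaling the median of all tested genes moved from 0.01 to -0.12, and Zfp36 went to -1.02.

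Differences also lay between replicates of the same group. In male WT 4 of 10 genes were over 1 log2 unit apart between the 2 libraries, beside 4.95% of tested genes. NT-KO males had 3 such genes (5.91%), WT females 4 (3.06%) and NT-KO females 1 (3.17%). Across the 8 libraries the range was over 2 log2 units for Fos, Egr1, Dusp1, Zfp36 and Gadd45b, that is 5 of 10, beside 7.87% of tested genes. The median range was 1.83 for the 10 genes and 0.77 for all tested genes.

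Library by library, female NT-KO replicate 1 had 10 of 10 genes above their own mean over the 8 libraries and female NT-KO replicate 2 had 9. By contrast 1 of 10 was above its mean in female WT replicate 2 and in male NT-KO replicate 2, and 2 were in male WT replicate 2. Between 49.7% and 50.8% of tested genes were above their mean in any library. Female WT replicate 2 was the lowest library for 6 of the 10 genes. Female NT-KO replicate 1 was the highest for 4 and male WT replicate 1 for 3.

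**Figure D3:**
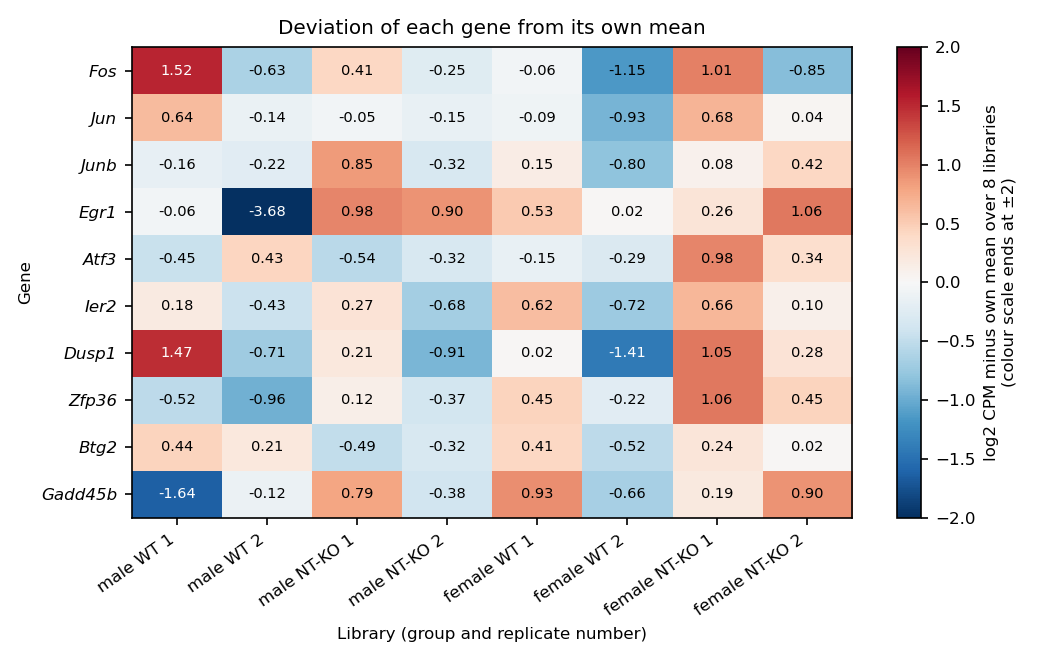
Each cell is the log2 CPM of a gene (rows) in a library (columns) minus the mean of that gene over the 8 libraries, red above and blue below. Female NT-KO replicate 1 is red throughout, female WT replicate 2 is blue for all genes but Egr1, and the darkest cell is Egr1 in male WT replicate 2 at -3.68.

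Fos, Jun, Ier2, Dusp1 and Zfp36 were higher in the library numbered 1 than in the library numbered 2 in all 4 groups, which makes 5 of 10, beside 6.81% of tested genes. The reverse held for 0 of 10, beside 6.03%. The same 5 of 10 were found with library size as the only scaling, when 6.34% of tested genes did so. The series design calls the WT and KO mice matched without saying how. The numbers are names from the sample titles and were not found to pair the libraries over all genes. Whether the libraries numbered 1 shared a time, an order of work or handling is not given in the sources used here. Any part of it in these values was not tested. The serial numbers of the libraries run through all males and then all females, so sex and that order cannot be told apart.

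Other genes of the immediate early class were read from a list of 44, of which 33 passed the filter on low counts. Fosb, Egr2, Egr3, Egr4, Nr4a2, Nr4a3, Fosl1, Dusp2, Dusp4, Dusp5 and Ier5l did not pass it, and Egr4 had no count in any library. None of the 33 passed the thresholds for NT-KO against WT by edgeR's quasi-likelihood test in either sex, with 5 at an unadjusted p under 0.05 in males, beside 11.5% of tested genes, and 2 in females, beside 1.55%. By the likelihood ratio test and by DESeq2 1 of the 33 passed in males, beside 1.56% and 1.66% of tested genes. This was Socs3, the feedback inhibitor of cytokine signalling, named here after its values were seen, at 22.1 and 18.4 CPM in WT males, 6.94 and 4.10 in NT-KO males, 7.15 and 2.70 in WT females and 5.99 and 3.38 in NT-KO females, so that the 2 male WT libraries were above the other 6. The log2 fold change of Socs3 in males was -1.87 (SE 0.476, FDR 0.237 by edgeR). The median of the 33 was 0.18 in males and 0.03 in females, with 21 and 18 fitted above 0. In the comparison of the sexes Pim1, a survival kinase, passed the FDR with 0.73 (SE 0.148, FDR 0.0246 by edgeR) and was higher in males.

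The 8 most abundant of this list were steadier than the 10 genes in part. Mcl1, a survival factor of the BCL2 family, stayed between 82.1 and 111 CPM in the 8 libraries. Plk3, a stress-linked kinase, was at 170 CPM in male WT replicate 1 and between 23.7 and 62.4 CPM in the other 7. Trib1, a pseudokinase scaffold, ran from 32.8 to 46.0 CPM, and Irf1, an interferon-induced factor, from 22.4 to 46.5 CPM. Nfkbia, the NF-kappaB inhibitor, ran from 23.7 to 49.0 CPM, Klf10, induced by TGF-beta, from 21.0 to 54.5 CPM and Dusp6, the ERK phosphatase, from 17.2 to 41.2 CPM. Cebpb, a liver transcription factor of the acute response, ran from 14 to 48.4 CPM. Cebpb was higher in the library numbered 1 in every group but the WT males.

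Male WT replicate 1 also stood out for 2 genes chosen after their values were seen. Gadd45g, a relative of Gadd45b, was at 99.9 CPM there, 34.9 CPM in female WT replicate 1 and 18.2 CPM in female NT-KO replicate 1, and at 1.73 to 8.54 CPM in the other 5 libraries. Myc, the growth regulator, was at 38.8 CPM in male WT replicate 1 and at 1.92 to 6.75 CPM elsewhere. Of the 33 genes 11 were higher in the library numbered 1 in all 4 groups, beside 6.81% of tested genes. They were Fosl2, Ier3, Myc, Gadd45g, Ccn2, Sgk1, Socs3, Trib1, Plk3, Cebpd and Ppp1r15a. None of the 33 showed the reverse, beside 6.03%.

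Genes of the pathway were read from 4 more lists, whose counts at an unadjusted p under 0.05 stand beside 11.5% of tested genes in males and 1.55% in females. Of 13 AP-1 relatives and partners 9 passed the filter and none passed the thresholds for NT-KO against WT in either sex by any of the 3 tests, with 0 at an unadjusted p under 0.05 in males and 2 in females. Among the 13 are 4 of the 10 genes, Fos, Jun, Junb and Atf3, and the 2 in females were Jun and Atf3, as given above. Atf2, the most abundant, ran from 16.6 to 25.5 CPM. Batf3 was lower in males than in females (log2 fold change -1.21, SE 0.269, FDR 0.033 by edgeR). It was the only one of the 9 called there, beside 4.19% of tested genes called. The 20 MAP kinases and promoter factors upstream all passed the filter, with 0 called by any of the 3 tests and 1 at an unadjusted p under 0.05 in males and 0 in females. Mapk14, which encodes p38 alpha, ran from 86.8 to 115 CPM, and Map2k1, the ERK kinase MEK1, had a log2 fold change of 0.44 in males against females (SE 0.111, FDR 0.05 by edgeR). Of 15 decay and translation partners of tristetraprolin and BTG2 none was called for NT-KO against WT by any of the 3 tests, with 3 at an unadjusted p under 0.05 in males and 0 in females, and Pabpc1 was the most abundant at 144 to 205 CPM. Both EGR corepressors were tested and not called by any of the 3 tests, with 0 at an unadjusted p under 0.05, and Nab1 ran from 44.2 to 60.4 CPM.

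Stress and inflammation genes were read in the same libraries. The heat shock list, 13 of 14 genes tested, had a median log2 fold change of -0.98 in males and 0.06 in females, with 0 called by edgeR's quasi-likelihood test, 10 at an unadjusted p under 0.05 for males (beside 11.5% of tested genes) and 0 for females (beside 1.55%). In males 12 of the 13 were below WT with no overlap, beside 19.2% of tested genes. Both the likelihood ratio test and DESeq2 called 6 of the 13 in males, beside 1.56% and 1.66% of tested genes, and 0 in females. The acute phase list, 13 of 15 tested, had medians of -0.80 and 0.19, with 0 called in either sex by any of the 3 tests, and 3 and 0 at an unadjusted p under 0.05, beside the same 11.5% and 1.55%. In males 5 of these 13 were below WT with no overlap, beside 19.2%. Male WT replicate 2, the library with the lowest Egr1, had the highest median deviation of both lists, 0.93 for heat shock and 0.95 for acute phase, where the 10 immediate early response genes were at -0.32. In female NT-KO replicate 1, where the 10 were at 0.67, the heat shock and acute phase medians were -0.08 and 0.09, and in female WT replicate 2, where the 10 were at -0.69, they were -0.21 and -0.37. The median deviation of 9 glucocorticoid response genes was -0.72 and 0.40 in WT males, -0.36 and -0.18 in NT-KO males, 0.68 and -0.54 in WT females and 0.47 and -0.35 in NT-KO females. It was thus higher in the library numbered 1 in both female groups, as for the 10 genes, and lower there in both male groups. Saa1, an acute phase gene named for its value there, was at 1830 CPM in male WT replicate 2 and between 30.6 and 260 CPM in the other 7. The part of these lists in the Egr1 result was not tested.

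**Figure D4:**
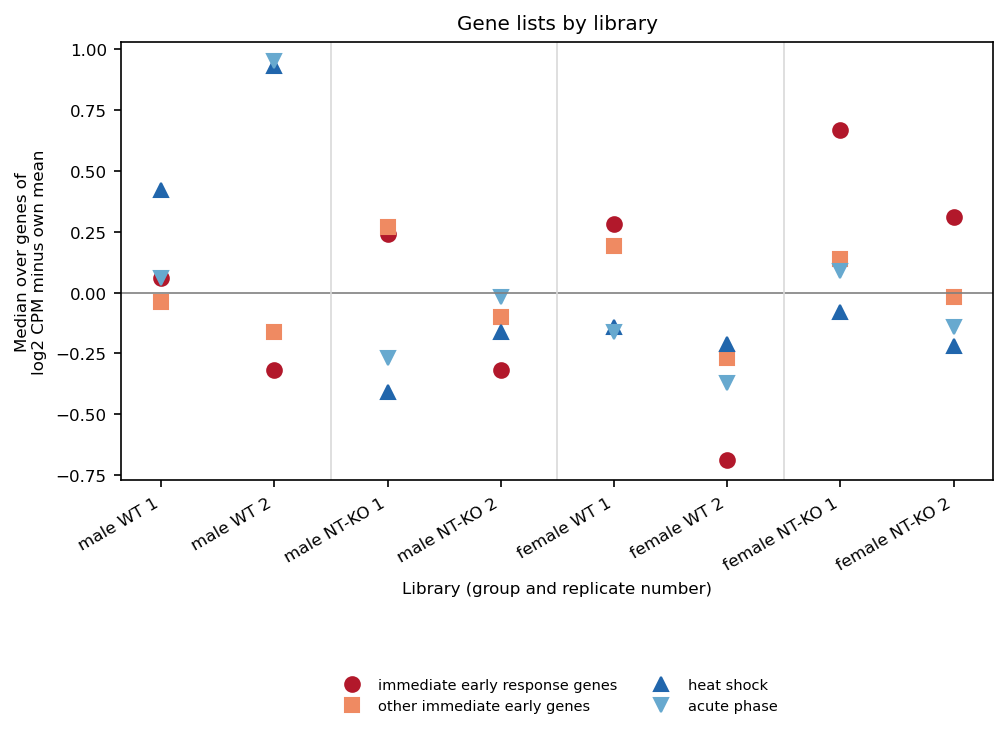
Median over the tested genes of a list of log2 CPM minus the gene's own mean, for each library (x axis), for the 10 immediate early response genes, 33 other immediate early genes, 13 heat shock genes and 13 acute phase genes. In male WT replicate 2 the heat shock and acute phase medians are 0.93 and 0.95 and both immediate early medians are below 0, and the immediate early response genes are lowest in female WT replicate 2 at -0.69.

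Genes whose profile over the 8 libraries was most like the mean profile of the 10 were ranked by the root mean square difference of centred log2 CPM. The closest were Gm45844 at 0.156 and Rpl32l at 0.209, both under 1 CPM on average (0.932 and 0.855). Rrm2b (0.255), Zfp40 (0.256), 4933440N22Rik (0.261), Sik1 (0.265), Gm8566 (0.267), Odf3b (0.267), Cbarp (0.272) and Ccdc141 (0.273) followed, against a median of 0.507 over tested genes. A gene that did not vary at all would be at 0.439, the root mean square of the mean profile itself. Of these 10 genes 1, the cyclic AMP-induced kinase gene Sik1, is on the list of other immediate early genes. Sik1 was at 14.9 and 16.1 CPM in WT males, 30.3 and 17.2 in NT-KO males, 24.1 and 12.6 in WT females and 28.9 and 22.5 in NT-KO females. Its lowest library was female WT replicate 2, as for 6 of the 10 genes.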

How the data were processed

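RNA-seq was done on 8 liver libraries, 2 for each of 4 groups taken from the sample titles. The deposited values are whole-number read counts per Ensembl gene, which the authors made by trimming with cutadapt, alignment with STAR 2.6.1a and counting with featureCounts on Ensembl GRCm38. The kit, TruSeq RNA, was used on total RNA, and a strand setting is not given in the sources used here. Of 49671 identifiers 49412 matched GENCODE M21.

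Ribosomal, micro and mitochondrial RNA genes (45) were dropped, and 13117 genes reaching 1 CPM or more in 2 or more libraries were tested. CPM is counts over the library total times its TMM factor, log2 CPM has a prior count of 2, and RPKM divides by the union of exons. All 8 libraries entered 1 fit with a mean for each group (edgeR 4.0.16 in R 4.3.3, glmQLFit and glmQLFTest). P-values were adjusted by Benjamini-Hochberg over all tested genes, with calls at an FDR of 0.05 or less and a log2 fold change beyond 1 in size, or on the FDR alone for the difference between the sexes, coded as female effect minus male effect. Alternatives were the likelihood ratio test, DESeq2 1.42.0, other scalings, filters and dispersions, a replicate block, each sex alone and each library left out. The script was tested on simulated data. Total counts of 45020377 to 64396291 make 1 count worth 0.0147 to 0.0236 CPM with the TMM factor, and a gene's lowest count sets its precision.

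The 10 genes and the gene lists were chosen with earlier results of these data known. Genes named in the text are the 10, the 8 most abundant other immediate early genes and up to 5 with the smallest FDR among those called, the most abundant of each further list with up to 3 past the FDR, and the 10 genes closest in profile, with exceptions said in place. Some genes that this rule names are not reported here.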

Additional observations from a re-analysis of the deposited data

How the results depend on the processing

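With 2 libraries in each group 1 library can decide a value. Depth limits Gadd45b most, with 15 to 112 counts in a library. The next lowest counts were 36 for Egr1, in male WT replicate 2, and 38 for Fos, which had up to 234. The setting with no filter on low counts, given next, tested more genes than the 13117 that passed the filter. The number it tested is not stated here, so its calls among the 10 genes have no background share to stand beside. With no filter on low counts, 667 tested genes passed the thresholds in males, 172 in females, 205 over both sexes, 552 for the difference between the sexes and 1241 for males against females, against 2, 1, 2, 2 and 550. Of the 10 immediate early response genes 2 passed in males (Egr1 and Dusp1), 1 in females (Dusp1), 1 over both sexes (Egr1) and 4 for the difference (Fos, Jun, Egr1 and Dusp1), and of the 33 others 5 in males, 2 over both sexes, 4 for the difference and 1 for males against females. The likelihood ratio test called 205 genes in males, 11 in females, 38 over both sexes and 46 for the difference, and DESeq2 called 218, 5, 39 and 62. Both tests called 1 of the 33 others in males and 1 in males against females. filterByExpr gave 6 genes in males and a robust dispersion 6, and the 4 libraries of a sex alone gave 0 in males and 0 in females. With no minimum fold change 1028 of the 13117 tested genes passed for males against females, 1 of the 10 (Zfp36) among them. Library size as the only scaling called 1 of the 10 (Zfp36) there and turned Junb to -0.04, turned Ier2 to 0.03 in males and turned Zfp36 to -0.08 for the difference between the sexes. The cause of these changes was not tested.

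The replicate block, with the replicate number as a pair within each sex, gave 0 tested genes in females and turned Junb to 0.11 for the difference between the sexes, and it changed no call among the 10 genes. Same-numbered libraries did not deviate together in every pair, with correlations of -0.01 within males, 0.02 within females and -0.18 to 0.21 over the 6 pairs of groups, so the numbers were not taken to pair the libraries.

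With each library left out in turn, a lone library is assumed to vary as the other groups do. Tested genes called ran from 2 to 21 in males, 0 to 0 in females, 0 to 9 over both sexes, 1 to 7 for the difference and 364 to 561 for males against females. Of the 10 genes 0 to 1 passed in males and over both sexes (Egr1, without male WT replicate 1). For males against females 0 to 1 passed, namely Egr1 without male WT replicate 1 and Zfp36 without male NT-KO replicate 1 or female WT replicate 2, and of the 33 others 0 to 1, Socs3 without female WT replicate 1. The median log2 fold change of the 10 ran from -0.41 to 0.46 in males (highest without male WT replicate 1), 0.26 to 1.09 in females (highest without female WT replicate 1) and 0.07 to 1.28 for the difference, and that of the 33 others from -0.29 to 0.14 for the difference. In males the log2 fold change ran from -1.43 to 0.77 for Fos, -0.74 to 0.04 for Jun, -0.13 to 1.03 for Junb, -0.87 to 0.02 for Atf3, -0.59 to 0.36 for Ier2, -1.71 to 0.47 for Dusp1 and 0.37 to 2.09 for Gadd45b. In females it ran from -0.35 to 1.56 for Fos, -0.04 to 0.76 for Egr1, -0.22 to 1.12 for Ier2, 0.10 to 1.06 for Junb, 0.30 to 1.00 for Zfp36, -0.28 to 0.66 for Btg2, 0.70 to 2.12 for Dusp1 and -0.35 to 1.3 for Gadd45b. Over both sexes it ran from -0.54 to 0.83 for Fos, -0.14 to 0.54 for Ier2 and -0.23 to 0.86 for Dusp1. For the difference it ran from -0.52 to 0.63 for Junb, -0.18 to 1.16 for Ier2, -0.33 to 0.38 for Zfp36, 0.78 to 3.12 for Dusp1 and -1.83 to 0.21 for Gadd45b. For males against females it ran from -0.18 to 1.19 for Fos, -0.09 to 0.38 for Jun, -0.26 to 0.36 for Junb, -0.64 to 0.04 for Ier2, -0.57 to 0.60 for Dusp1 and -0.31 to 0.16 for Btg2.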

Other observations

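Further gene lists gave other values for the same 8 livers. Among 15 of 16 circadian clock genes tested, 0 were called for NT-KO against WT in either sex by any of the 3 tests, with 7 at an unadjusted p under 0.05 in males and 0 in females, beside 11.5% and 1.55% of tested genes. In males 6 of the 15 were above WT and 5 below with no overlap, beside 19.6% and 19.2%. Tef, the most abundant, ran from 189 to 295 CPM. Between the sexes Arntl, the clock activator, was higher in males (log2 fold change 1.70, SE 0.285, FDR 0.011 by edgeR), Clock was higher by 0.90 (SE 0.144, FDR 0.00879), and Per3 was lower, at -0.82 (SE 0.0957, FDR 0.00184), both short of the fold threshold. The 9 glucocorticoid response genes had medians of -0.17 in males and -0.03 in females with 0 called, and Tat, a hormone-induced aminotransferase, ran from 673 to 1450 CPM. For NT-KO against WT none of 10 fasting genes, 9 feeding genes and 11 tested ATF4 targets was called in either sex by any of the 3 tests. Of 9 tested p53 targets 0 were called by the quasi-likelihood test and 1 in males by each of the other tests, beside 1.56% of tested genes by the likelihood ratio test and 1.66% by DESeq2. The most abundant genes of the feeding, ATF4 and p53 lists were Scd1 (1880 to 15200 CPM), Shmt2 (152 to 206 CPM) and Trp53inp1 (23.7 to 55.0 CPM). Scd1 was highest in male NT-KO replicate 2. In males against females Pdk4, of the fasting list, was lower (-1.13, SE 0.237, FDR 0.0276 by edgeR), and Mthfd2, an ATF4 target, was higher (1.39, SE 0.211, FDR 0.00678).

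Cell type markers were measured as well, since other cells of the liver also carry immediate early genes. For NT-KO against WT none of the tested markers of hepatocytes (7), Kupffer cells (8), sinusoidal endothelial cells (7), stellate cells (6), cholangiocytes (5), neutrophils (2 of 6), B lymphocytes (4) or red blood cells (5) was called in either sex by any of the 3 tests. In females all 4 B lymphocyte genes were fitted lower in NT-KO with no overlap (median log2 fold change -0.84, 2 at an unadjusted p under 0.05), beside 14.2% of tested genes below with no overlap, while in males all 4 were fitted higher (median 0.61, 3 with no overlap, beside 19.6% of tested genes, and 0 at an unadjusted p under 0.05). In males all 5 red blood cell genes were fitted lower (median -1.07), 4 of them with no overlap, beside 19.2% of tested genes below with no overlap. Of the 5, 2 were at an unadjusted p under 0.05, beside 11.5% of tested genes. In females 4 of 5 were fitted higher (median 0.43, 0 at an unadjusted p under 0.05). At an unadjusted p under 0.05 there were also 2 sinusoidal endothelial genes in males and 1 in females, and 1 cholangiocyte gene in males, with 0 in the other marker lists. These counts, and those of the B lymphocyte genes, stand beside 11.5% of tested genes in males and 1.55% in females. None of 4 T lymphocyte markers passed the filter, and Cd3g, the most abundant, was at 1.35 CPM or less. Ly6g, the defining neutrophil marker, was at or under 3 counts in every library. The summed Kupffer cell markers were 171 CPM in male WT replicate 1, 262 in male WT replicate 2, 296 and 225 in the NT-KO males, 330 and 340 in the WT females, and 312 and 373 in the NT-KO females, led by Clec4f. Clec4g, the leading endothelial marker, ran from 41.2 to 70.4 CPM, Dcn of stellate cells from 120 to 184 CPM, Spp1 of cholangiocytes from 22.3 to 55.1 CPM and S100a9 of neutrophils from 0.667 to 4.01 CPM. Between the sexes 3 of the 4 B lymphocyte genes were called lower in males, beside 4.19% of tested genes called, and all 4 were fitted lower (median -1.56, 3 with no overlap). The log2 fold change was -1.60 for Cd79a (SE 0.273, FDR 0.0115 by edgeR) and -1.84 for Cd79b (SE 0.308, FDR 0.0108). No Kupffer cell or sinusoidal endothelial marker was called, with 5 of 8 and 4 of 7 at an unadjusted p under 0.05, beside 26.9% of tested genes, and all fitted lower in males. Of 5 cholangiocyte markers 4 were fitted lower in males and 1 higher, and Epcam was called lower (-1.12, SE 0.258, FDR 0.0377). At an unadjusted p under 0.05 there were 2 of the 5, 1 of them higher in males, beside 26.9% of tested genes. The likelihood ratio test and DESeq2 each called 2 of the 5, beside 5.17% and 5% of tested genes. The erythroid Alas2 was higher in males (3.22, SE 0.259, FDR 0.000248), as was Hbb-bt (1.10, SE 0.276, FDR 0.0497). Hbb-bs, the most abundant globin gene, ran from 79.9 to 391 CPM and was highest in male WT replicate 1. In heat shock and acute phase genes Hspa1b was higher in males (1.84, SE 0.298, FDR 0.00932), as was Hp (1.36, SE 0.294, FDR 0.0305). Hspa8 ran from 851 to 2160 CPM, highest in male WT replicate 2. The part of these cells and lists in the values of the 10 immediate early response genes was not tested.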
